A study of Homo sapiens with 3 samples.

Results

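Box H/ACA small nucleolar RNAs (snoRNAs) are short nuclear RNAs whose gene symbols start with SNORA. In these arrays 61 of 22395 named genes are of this kind. They were chosen as all genes with a probe set whose only symbol in the platform annotation begins with SNORA and a digit, taking for each gene the probe set with the highest mean. The arrays measured total RNA from HEK293T, a widely used human cell line of embryonic kidney origin in which SV40 large T antigen is expressed (its cell line label reads HEK239T), grown asynchronously in serum. The 3 groups were cells stably transduced with lentivirus and selected in puromycin: empty pCDF1 vector, pCDF1 with wild-type TRAF7, and pCDF1 with TRAF7 carrying the G536S change. TRAF7 is a RING-finger E3 ubiquitin ligase with WD40 repeats, and the comparison asks what the added protein and its mutant form do to gene expression. Each group has 1 array, labelled from 300 ng of total RNA, so no test between groups was possible and every difference below is the difference between one array and another. It holds the culture, the extraction and the array together with the construct. The labels do not say whether a line is a clone or a pool, and all 3 lines share the virus backbone and the selection. Precision is limited by the number of arrays, and in such bulk RNA fewer cells holding a transcript cannot be told apart from less of it per cell.

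H/ACA snoRNAs fold into a pair of hairpins joined by a hinge (box H) and end in a short ACA box. Each hairpin can hold a pocket that pairs with a target RNA and places one uridine for conversion to pseudouridine, mostly in ribosomal RNA. The RNA is bound by dyskerin (DKC1), which is the pseudouridine synthase, and by NHP2, NOP10 and GAR1. Most human H/ACA snoRNAs lie in introns of other genes and are cut from the spliced intron, so a host gene and its snoRNA start from the same transcript but have separate fates.

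TRAF7 itself had values of 5.66 (empty vector), 8.11 (wild type) and 7.35 (G536S), in log2 RMA units, where 1 unit is a 2-fold step. The empty vector array had the lowest 75th percentile over all probe sets, 1.73 against 1.85 and 1.86 in the other arrays. Of 8 genes listed for HEK293T, NEFL, INA, VIM and CDH2 read between 4.34 and 6.35 in every array, PAX2 read at most 1.82, and KRT8, KRT18 and NEFM read at or below 1.26. Of the measured leukocyte (5), fibroblast (5), endothelial (3) and epithelial (4) markers, CD79A, COL1A1 and CDH1 lay above the median gene, and the others below it.

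The RefSeq H/ACA genes are short, from 122 to 236 nucleotides with a median of 134. Their levels spanned most of the range of the array. Of the 61 genes, 27 had a mean at or above the 75th percentile of all genes (2.87), 26 lay between the median (1.21) and that value, and 8 lay below the median, a range treated here as near background. The brightest was SNORA68 at 8.11 with the empty vector, 8.28 with wild type and 9.27 with G536S. SNORA23, SNORA71C, SNORA49, SNORA65, SNORA50A, SNORA21 and SNORA71A followed, with means from 8.45 down to 6.45. Probe sets differ in how well they bind, so this order describes the array and does not compare amounts of RNA.

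**Figure D1:**
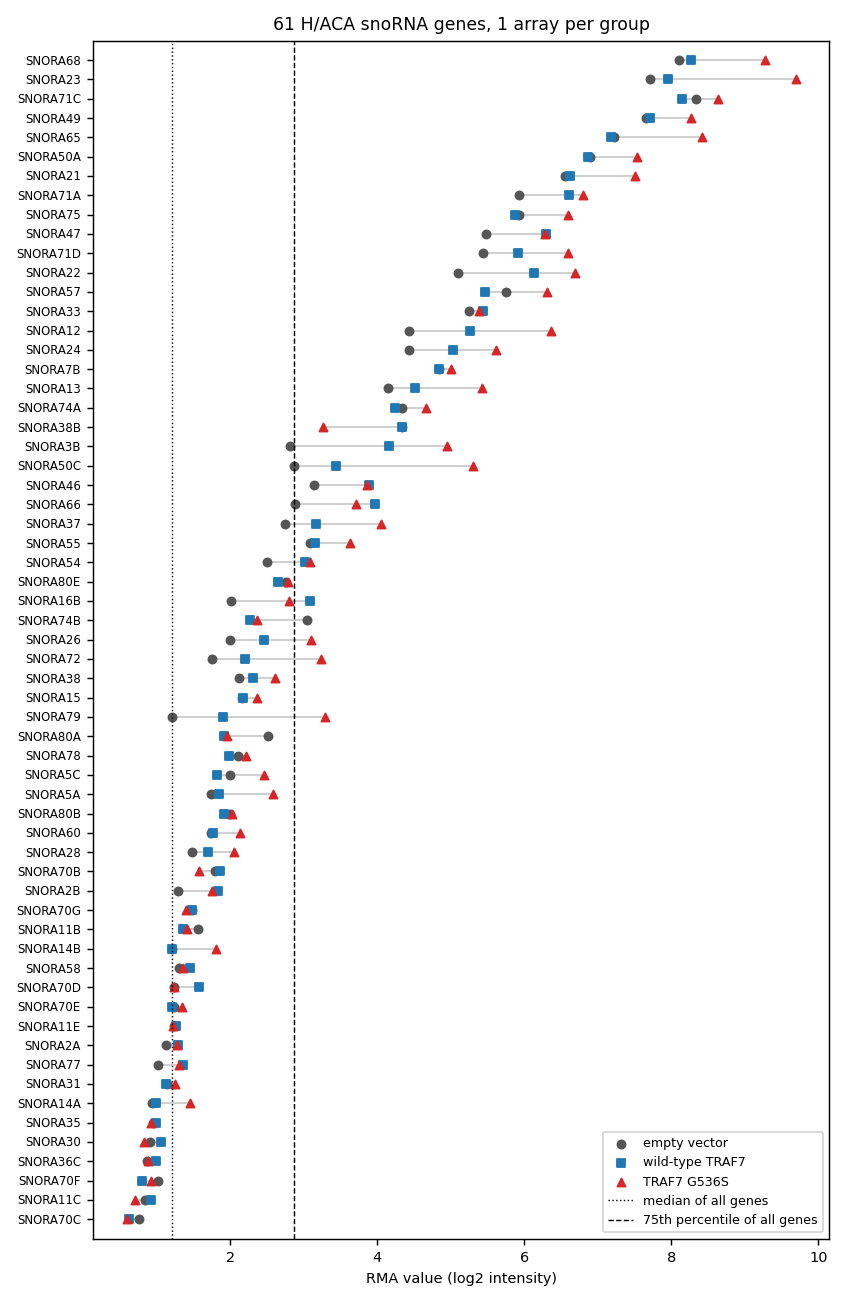
RMA value (log2 intensity, horizontal axis) of each of the 61 H/ACA snoRNA genes in the 3 arrays, sorted by mean; circles are the empty vector, squares wild-type TRAF7 and triangles TRAF7 G536S, and the vertical lines are the median (1.21) and 75th percentile (2.87) of all gene means. The G536S triangle is the rightmost symbol for 38 of the 61 genes.

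The main pattern was a higher level of H/ACA snoRNAs in the G536S array. Against the empty vector the median member differed by 0.49 (all genes, -0.00), and 48 of 61 members were above 0, compared with 48.7% of all genes. Members at least 1.5-fold higher numbered 25, which is 41.0% of them, against a background of 3.05% of all genes and 6.07% of genes at or above the median level. At least 2-fold higher were 14 members (background 0.464%). Lower by 1.5-fold were 2 members (background 1.07%), and 1 of these, SNORA38B, was 2-fold lower (background 0.134%).

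Wild-type TRAF7 against the empty vector gave smaller values. The median member differed by 0.09 (all genes, -0.00), and 41 of 61 were above 0, with a background of 49.8%. Of the members, 10 were at least 1.5-fold higher (background 2.73%) and 4 at least 2-fold higher (background 0.397%). The latter count was 1 under quantile normalization and 1 under cyclic loess. This comparison and the one before share the empty vector array. Members 1.5-fold lower with wild type were SNORA74B and SNORA80A (background 0.911%), and none was 2-fold lower (background 0.0804%).

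Setting G536S directly against wild type leaves out the empty vector array. The median member differed by 0.20 (all genes, -0.00), and 42 of 61 members were above 0 (background 48.8%). Here 20 members were at least 1.5-fold higher (background 1.11%) and 6 at least 2-fold higher (background 0.134%). SNORA38B was the 1 member at least 1.5-fold lower (background 0.929%) and also the 1 at least 2-fold lower (background 0.134%). G536S held the highest of the 3 values for 38 of 61 members, and for 31.6% of all genes. The members nearest to the median pattern of the 61 were SNORA14A, SNORA55 and SNORA38, whose wild-type and G536S differences lay, in absolute sum, 0.050, 0.065 and 0.11 from the members' medians.

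Low genes differ little on these arrays, so the counts were also set against the 11198 genes at or above the median level, where 53 members lie. For G536S against the empty vector, 45 of the 53 were above 0 (background 63.9%), 25 were 1.5-fold higher (background 6.07%), 14 were 2-fold higher (background 0.929%), 2 were 1.5-fold lower (background 2.08%) and 1 was 2-fold lower (background 0.268%). For wild type against the empty vector, 36 were above 0 (background 62.6%), 10 were 1.5-fold higher (background 5.42%), 4 were 2-fold higher (background 0.795%), 2 were 1.5-fold lower (background 1.79%) and 0 were 2-fold lower (background 0.161%). For G536S against wild type, 39 were above 0 (background 51.4%), 20 were 1.5-fold higher (background 2.17%), 6 were 2-fold higher (background 0.268%), 1 was 1.5-fold lower (background 1.81%) and the same 1 was 2-fold lower (background 0.268%). In both comparisons with G536S the members 1.5-fold higher outnumbered those 1.5-fold lower, 25 to 2 and 20 to 1.

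**Figure D2:**
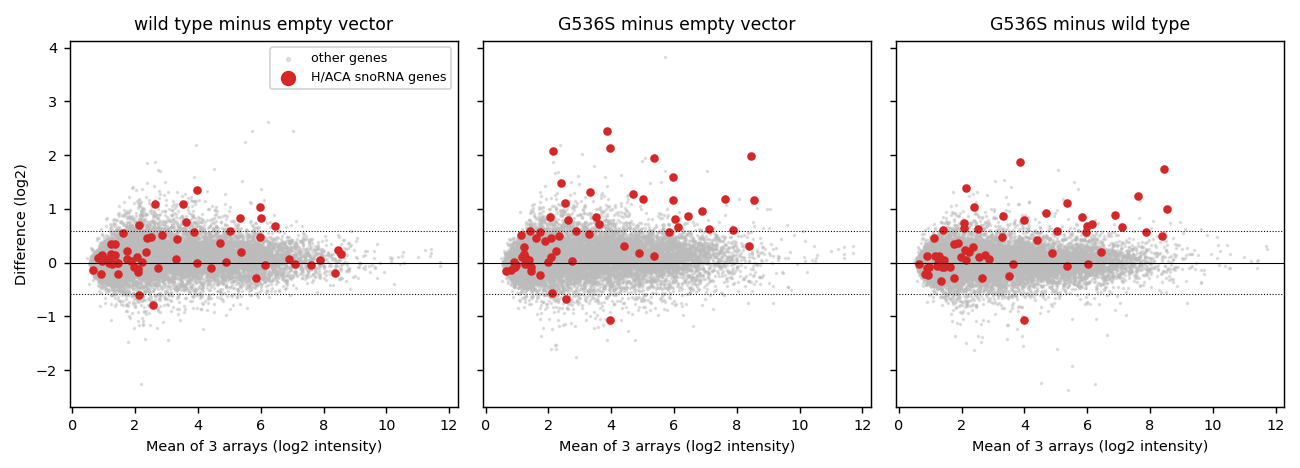
Difference between 2 arrays (log2, vertical axis) against the mean of the 3 arrays (log2 intensity, horizontal axis) for each comparison, with H/ACA snoRNA genes in red, all other named genes in grey and dotted lines at 1.5-fold. In the 2 panels with G536S most red points right of the lowest levels lie above 0, and SNORA38B lies near -1.08 and -1.07.

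Members were also split by level. Among the 27 members at or above the 75th percentile, the G536S minus empty vector difference had a median of 0.84, 26 were above 0 and 19 were at least 1.5-fold higher; over all genes of that level the median was 0.12 and 6.54% were 1.5-fold higher. Among the 26 members from the median to the 75th percentile the median was 0.18 and 6 were 1.5-fold higher, against 0.07 and 5.61% for all genes of that level. The 8 members below the median had a median of -0.06 with none 1.5-fold apart. All genes of that level were much the same, with a median of -0.04, 0.0268% 1.5-fold higher and 0.0536% 1.5-fold lower. Across the 61 members the Spearman correlation of mean level with this difference was 0.63, and within the 27 brightest it was 0.05; both are descriptions over genes that share the same arrays. The mean level contains the G536S value that also makes the difference, so the level was read again in the wild-type array alone. By that level, the 28 members at or above the 75th percentile of genes had a median of 0.82 with 20 at least 1.5-fold higher (all genes there, 0.12 and 6.91%), and the 33 below it a median of 0.11 with 5 (all genes there, -0.02 and 1.76%). The Spearman correlation with the wild-type level was 0.61 over the 61 members.

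The 5 members furthest above the empty vector with G536S were SNORA50C, SNORA3B, SNORA79, SNORA23 and SNORA12. The empty vector value of SNORA50C was 2.86, the wild-type value 3.44 and the G536S value 5.31, a G536S minus empty vector difference of 2.45 (5.46-fold). Its G536S minus wild type difference of 1.87 (3.66-fold) was the highest of all 22395 genes in the values as deposited. The G536S array thus stands apart from the other 2 for this gene. It is the 1 member for which the search by containment found no host gene in RefSeq.

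SNORA3B, in the ribosomal protein gene RPL27A, gave 2.81, 4.16 and 4.95 in empty vector, wild type and G536S. Differences from the empty vector were 1.35 (2.55-fold) for wild type, the highest member value in that comparison, and 2.14 (4.41-fold) for G536S. SNORA79, in GTF2A1, which encodes a TFIIA subunit, read 1.21, 1.90 and 3.29 in the same order. Its empty vector value lies at the median gene, where signal is low, so the difference of 2.08 (4.22-fold) for G536S starts from an uncertain base. For both genes the 3 arrays run in the order empty vector, wild type, G536S, which held for 25 members.

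SNORA23, in the nuclear import receptor gene IPO7, was both bright and different, at 7.71 with the empty vector, 7.95 with wild type and 9.70 with G536S. It differed by 1.99 (3.97-fold) between G536S and empty vector but by 0.24 between wild type and empty vector. SNORA12, in CWF19L1, read 4.43, 5.26 and 6.37, differences of 0.83 and 1.94 from the empty vector. In SNORA23 the first 2 arrays are close and G536S is apart, whereas SNORA12 steps upward through all 3.

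Because these snoRNAs are cut from host transcripts, the starts of the hosts of the furthest members are shown, with SNHG8, the host of SNORA24, added for its own level. Each line runs from 40 bases before to 20 bases after a RefSeq transcription start (GRCh38.p14), 5′ to 3′ on the gene's strand, and capitals mark a run of at least 7 C or T bases that reaches into the window from 5 bases before to 10 bases after the start. Such a run is called here an oligopyrimidine tract, a feature well known from genes for ribosomal proteins.
RPL27A (host of SNORA3B), chr11:8682752-8682811, plus strand: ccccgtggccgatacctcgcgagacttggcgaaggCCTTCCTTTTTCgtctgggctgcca
GTF2A1 (host of SNORA79), chr14:81221371-81221430, minus strand: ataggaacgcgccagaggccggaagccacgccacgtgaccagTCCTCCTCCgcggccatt
IPO7 (host of SNORA23), chr11:9384612-9384671, plus strand: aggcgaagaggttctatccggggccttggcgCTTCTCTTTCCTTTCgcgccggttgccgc
CWF19L1 (host of SNORA12), chr10:100267619-100267678, minus strand: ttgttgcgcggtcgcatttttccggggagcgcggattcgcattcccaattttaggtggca
SNHG8 (host of SNORA24), chr4:118278722-118278781, plus strand: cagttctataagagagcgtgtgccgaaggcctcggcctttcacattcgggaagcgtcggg
The hosts of SNORA3B, SNORA79 and SNORA23 carry such a tract and those of SNORA12 and SNORA24 do not. Of the 42 host genes with an entry in the RefSeq start table, 14 (33.3%) had a tract, against 21.4% of all 27305 genes in it. A gene with several starts, such as GTF2A1 with 2, was taken and shown at the start with the longest tract. More starts thus give more chances of a match. Members in hosts with a tract had a median G536S minus empty vector difference of 0.12 (14 members), and members in hosts without one 0.47 (31 members). For members at or above the median level these medians were 0.31 (11 members) and 0.53 (28 members). At that level G536S minus wild type gave the opposite order, 0.42 with a tract and 0.25 without. The difference between hosts with and without a tract was not tested. A match describes these letters only.

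RefSeq placed 60 of the 61 snoRNAs inside 56 longer genes. The table gives no strand for the snoRNAs, so a host is the gene that spans them, and for 4 members genes on opposite strands do so. Grouped by host, the 7 members in ribosomal protein genes had a median G536S minus empty vector difference of 1.16, all 7 above 0 and 6 of them at least 1.5-fold higher. The 8 members in non-coding hosts had a median of 0.64 with 4 at least 1.5-fold higher, and the 43 members in other protein-coding genes a median of 0.28 with 13 at least 1.5-fold higher and 2 lower. The other 3 members, SNORA50C and those inside transcribed pseudogenes (SNORA22 and SNORA7B), had a median of 1.60. The background share was 3.05% for 1.5-fold higher and 1.07% for 1.5-fold lower, or 6.07% and 2.08% at or above the median level. The groups also differed in level. All 8 members below the median lie in other protein-coding genes. Every member in a ribosomal protein gene except SNORA72 lay at or above the 75th percentile. Level went with this difference over the 61 members (Spearman 0.63), and host group was not separated from level. No test stands behind these differences between host groups.

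In the ribosomal protein group, SNORA65 in RPL12 read 7.23, 7.18 and 8.42 in empty vector, wild type and G536S. SNORA21 in RPL23 differed by 0.06 with wild type and 0.95 with G536S. In SNORA65 and in the brighter of the 2 SNORA21 probe sets the empty vector and wild-type values lie close together and G536S lies above both. SNORA72 in RPL30 differed by 0.45 and 1.48. SNORA66 in RPL5 went the other way between the constructs: it read 2.88, 3.97 and 3.72, so wild type (1.09) lay above G536S (0.84) in difference from the empty vector. SNORA33 in RPS12 read 5.25, 5.45 and 5.38, within 1.5-fold in all arrays despite its level.

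Among members in non-coding hosts, SNORA24, which guides pseudouridylation of 18S ribosomal RNA, read 4.43, 5.02 and 5.62 in empty vector, wild type and G536S. Its host SNHG8 read 4.03, 4.33 and 5.28. Both are highest with G536S, where SNORA24 differed from the empty vector by 1.19 and SNHG8 by 1.25. SNORA26 in DANCR, a long non-coding RNA, differed by 0.47 with wild type and 1.10 with G536S, while DANCR differed by 0.15 and 0.37. SNORA13, which has been studied in cellular senescence, differed by 0.36 and 1.28. It lies where EPB41L4A and EPB41L4A-AS1 overlap on opposite strands, and was counted above with the members in other protein-coding genes.

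The 3 SNORA71 copies measured lie together at SNHG17. SNORA71A read 5.94, 6.61 and 6.81, SNORA71C 8.33, 8.14 and 8.64, and SNORA71D 5.44, 5.91 and 6.60. G536S was the highest array for each, with differences from the empty vector of 0.87, 0.31 and 1.16, but wild type was above the empty vector for SNORA71A and SNORA71D and below it for SNORA71C. SNHG17 itself differed by -0.37 with wild type and -0.07 with G536S. Near-identical copies can share probe sequence, so the split between them is uncertain.

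Other hosts with a pair of members showed the same lack of a common value. In CNOT1, the scaffold of the CCR4-NOT deadenylase, SNORA46 read 3.13, 3.89 and 3.86 and SNORA50A 6.90, 6.87 and 7.53. SNORA46 was thus higher with both constructs and SNORA50A with G536S alone, while CNOT1 stayed within 0.05 of its empty vector value. In TBRG4, SNORA5A differed by 0.11 and 0.84 and SNORA5C by -0.18 and 0.46. In KANSL2, a subunit of the NSL acetyltransferase complex, SNORA2A differed by 0.16 and 0.15 and SNORA2B by 0.54 and 0.47, with means of 1.23 and 1.62.

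Host and snoRNA levels were compared for the 47 members whose host had a probe set of its own. With G536S against the empty vector these members had a median of 0.49 and their 44 hosts a median of 0.13. Of these members 18 were at least 1.5-fold higher, and for 2 of them (SNORA24 and SNORA16B) the host was too. For 6 of the 18 the host was below 0, and hosts below 0 were no rarer among the remaining members. Among those 6, SNORA37 read 2.74, 3.17 and 4.05 while its host MBD2, a methyl-CpG binding protein, read 5.02, 4.88 and 4.65. Across the 47 pairs, Pearson's r between snoRNA and host differences was 0.17 for G536S and 0.26 for wild type. This is a description over pairs from the same arrays. Some hosts, among them HTR2C, RAB30 and ASTN2, read at or below 1.25 in every array, so low host signal limits the comparison.

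**Figure D3:**
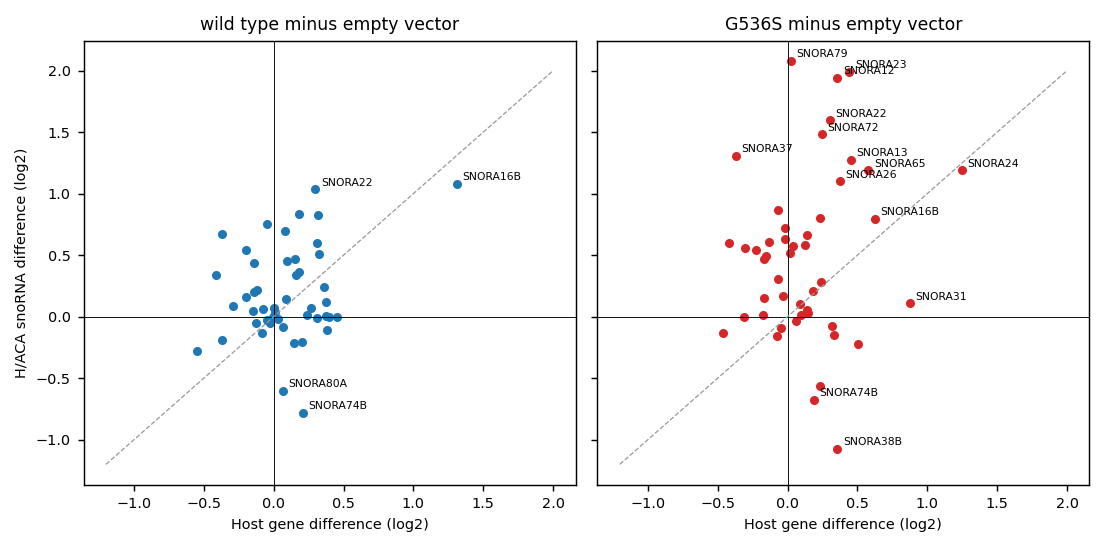
Difference of each H/ACA snoRNA (log2, vertical axis) against that of its host gene (log2, horizontal axis) for the 47 members with a measured host, for wild type and for G536S minus empty vector; the dashed line marks equal differences. SNORA24 lies near the dashed line at 1.25 and 1.19, while SNORA79, SNORA23 and SNORA12 lie far above it.

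Members that were high with wild type as well were fewer. SNORA16B, in the PP2A regulatory subunit gene PPP2R5A, read 2.01, 3.09 and 2.81, and PPP2R5A read 2.40, 3.71 and 3.02. SnoRNA and host were both highest with wild type. SNORA22, in the transcribed pseudogene CCT6P1, read 5.10, 6.13 and 6.69, and SNORA47, inside ZBED3, read 5.48, 6.30 and 6.28. SNORA22 and SNORA47 were higher in both construct arrays than in the empty vector array, by 1.04 and 0.83 with wild type.

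Bright members that differed with G536S and not with wild type included SNORA75 in the nucleolin gene NCL, at 5.93, 5.88 and 6.59, and SNORA49 in the chromatin remodeller gene EP400, at 7.66, 7.71 and 8.27. Their differences from the empty vector were -0.05 and 0.04 with wild type and 0.66 and 0.61 with G536S. SNORA57 read 5.75, 5.47 and 6.31, so wild type lay below the empty vector (-0.28) and G536S above it (0.56). SNORA28 and SNORA54 lay just short of 1.5-fold (1.49-fold each) and SNORA14B (1.51-fold) and SNORA49 (1.52-fold) just past it.

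Against the empty vector, 2 of 61 members (3.28%) were 1.5-fold lower with G536S (background 1.07%) and 2 with wild type (background 0.911%). SNORA38B, in NOL11, which encodes a ribosome biogenesis factor, had 4.33, 4.33 and 3.26 in empty vector, wild type and G536S. It was the lowest member in both comparisons with G536S, with differences of -1.08 and -1.07, while NOL11 differed by 0.36 from the empty vector. Its relative SNORA38 differed by 0.49 the other way.

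SNORA74B (U19-2), in the proton pump subunit gene ATP6V0E1, read 3.05, 2.27 and 2.37, and SNORA80A, in URB1, another ribosome biogenesis gene, 2.52, 1.91 and 1.95. Both were highest in the empty vector array, with differences of -0.78 and -0.60 for wild type and -0.68 and -0.56 for G536S. The related SNORA74A read 4.34, 4.24 and 4.66, and SNORA80B and SNORA80E stayed within 0.14 between any 2 arrays. The members lowest in the G536S minus wild type comparison after SNORA38B were SNORA70D (-0.34), SNORA70B (-0.29), SNORA16B (-0.29), SNORA66 (-0.25), SNORA30 (-0.23), SNORA11C (-0.22) and SNORA36C (-0.11).

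The SNORA70 and SNORA11 copies were dim, as were several other members. These 9 genes had means from 0.66 to 1.74, a median difference of -0.09 between G536S and empty vector and none at least 1.5-fold apart. SNORA11B, SNORA70C and SNORA70F were among the lowest members with wild type (-0.20, -0.13 and -0.22), with means of 1.44, 0.66 and 0.91. Also at background in every array were SNORA35, a brain-enriched snoRNA in the serotonin receptor gene HTR2C (0.95, 0.99 and 0.92), SNORA30 and SNORA36C. SNORA31, in which variants have been linked to herpes simplex encephalitis, read 1.14, 1.12 and 1.24, so its level could not be resolved here, though its host TPT1 differed by 0.88 with G536S. The 31 members whose symbol has no copy letter had a median of 0.66, and the 30 with one 0.13.

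Repeated probe sets bear on how far a single value can be trusted. SNORA21 has a second probe set at 1.76, 2.86 and 2.96, with differences of 1.11 and 1.21 where the brighter one gave 0.06 and 0.95. The G536S direction is the same on both, but the wild-type value is not. G536S minus wild type was 0.10 on the dimmer set and 0.89 on the brighter one. With the mean of probe sets per gene, 18 members in place of 20 were 1.5-fold higher in that comparison. At 2-fold it was 5 in place of 6. SNORA72 has a second set at background (0.88, 0.85 and 0.95). SNORA15 has a dimmer set at 1.12, 1.13 and 1.07 whose G536S difference of -0.05 is opposite in sign to the 0.21 of the chosen set. The 5 sets of SNORA38 hold 2 distinct values, with G536S differences of 0.49 and 0.44. Sets with identical values are not independent repeats, though the mean of probe sets per gene included each of them.

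A further 44 probe sets name an H/ACA snoRNA beside other genes and gave no member. In 7 of them the other symbols are small RNAs too, and 3 of these are genes in which a miRNA hairpin overlaps the snoRNA, so part of the snoRNA's letters is in the RefSeq hairpin table. They are shown 5′ to 3′ as RNA, with the bases that lie inside the snoRNA gene in capitals (GRCh38.p14).
MIR1291 and SNORA2C, chr12:48654444-48654530, minus strand: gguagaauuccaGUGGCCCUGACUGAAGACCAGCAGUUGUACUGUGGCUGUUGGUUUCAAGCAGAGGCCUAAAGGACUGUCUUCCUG
MIR3651 and SNORA84, chr9:92292458-92292547, minus strand: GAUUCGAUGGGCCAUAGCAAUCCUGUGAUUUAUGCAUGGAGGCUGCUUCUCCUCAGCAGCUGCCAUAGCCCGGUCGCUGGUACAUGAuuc
MIR664A and SNORA36B, chr1:220200538-220200619, minus strand: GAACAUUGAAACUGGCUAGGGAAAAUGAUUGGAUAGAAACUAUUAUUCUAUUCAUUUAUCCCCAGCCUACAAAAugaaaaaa
All but 12, 3 and 8 bases of these hairpins lie within the snoRNA. The SNORA2C and MIR1291 set gave 4.70, 4.90 and 6.33 in empty vector, wild type and G536S, a G536S difference of 1.63. The SNORA84 and MIR3651 set was bright and close in all arrays (7.14, 6.998 and 7.35), and the SNORA36B and MIR664A set was at background. In the other 37 sets a longer gene, mostly the host, is named too. Their G536S minus empty vector median was 0.31, and 4 (10.8%) were at least 1.5-fold higher. The background was 3.05% of all genes and 6.07% of genes at or above the median level. Among the 4 was the set of SNORA9 and its host SNHG15 at 5.34, 5.41 and 6.13. SNORA73A (U17), which takes part in cleavage of ribosomal RNA precursors, shares a set with RCC1 and SNHG3 that read 5.06, 5.47 and 5.60. These sets cannot separate the snoRNA from the longer gene.

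Other stable nuclear RNAs were set beside the members. For genes at or above the median level, the G536S minus empty vector median was taken by class. It was 0.57 for 53 H/ACA snoRNAs, 0.63 for 65 box C/D snoRNAs (which guide ribose methylation) and 0.56 for 16 small Cajal body RNAs. For 12 genes that RefSeq types as small nuclear RNA (snRNA) the median was 0.70. It was 0.01 for 169 miRNA genes and 0.10 for 10083 protein-coding genes. G536S minus wild type gave 0.35, 0.50, 0.63 and 0.70 for the first 4 classes and -0.02 and 0.00 for miRNA and protein-coding genes. With wild type against the empty vector all 6 medians lay between 0.01 and 0.14. Over all levels the G536S minus empty vector median was 0.49 for the 61 H/ACA snoRNAs, 0.03 for 157 box C/D snoRNAs, most of them below the median level, 0.49 for 20 small Cajal body RNAs, 0.62 for 16 snRNA genes, -0.03 for 1018 miRNA genes and 0.01 for 17065 protein-coding genes. Differences between these classes were not tested.

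**Figure D4:**
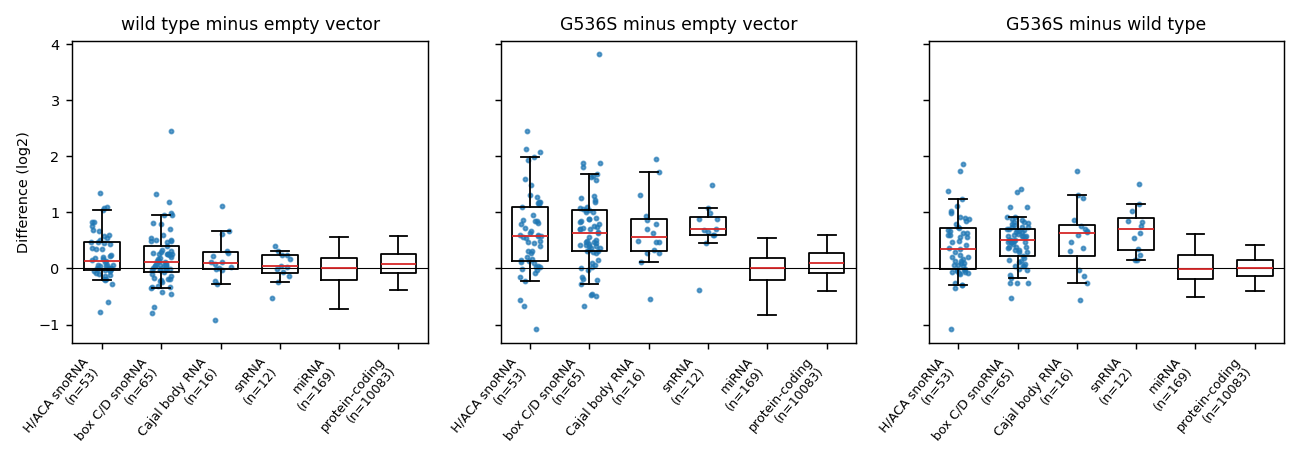
Difference between 2 arrays (log2, vertical axis) by RNA class, for genes at or above the median level; boxes span the quartiles, the red line is the median, whiskers run from the 5th to the 95th percentile, and points are single genes of the first 4 classes. In both comparisons with G536S the medians of the 4 nuclear RNA classes lie between 0.35 and 0.70, while miRNA and protein-coding medians lie between -0.02 and 0.10.

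Genes for the proteins that bind and mature H/ACA snoRNAs mostly differed by less than 1.5-fold. Of the core proteins, NHP2 read 5.86, 5.87 and 6.20, NOP10 6.16, 6.25 and 6.54, and GAR1 2.11, 2.70 and 2.93. GAR1 was at least 1.5-fold higher with G536S (0.82) and with wild type (0.59) as deposited, at a low level. NHP2 and NOP10 differed by 0.34 and 0.37 with G536S. The set that DKC1 shares with SNORA56 read 5.92, 5.88 and 5.91, and no set names DKC1 alone. The median of the 3 measured core genes was 0.37 with G536S and 0.08 with wild type, where protein-coding genes at or above the median level had 0.10 and 0.08.

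Of 9 assembly factors, 1 was 1.5-fold higher with G536S, NUFIP1 at 0.60, and none lower, beside 5.2% higher and 1.86% lower among protein-coding genes at or above the median level. NAF1, which GAR1 replaces as the particle matures, differed by -0.04, the dyskerin chaperone SHQ1 by -0.07, RUVBL1 by 0.05, RUVBL2 by -0.30, RPAP3 by 0.18, PIH1D1 by 0.08, NOLC1 by -0.20 and coilin (COIL) by 0.51. Of 19 genes for 3′ end maturation and decay none was 1.5-fold apart from the empty vector in either construct, where 5.2% of protein-coding genes at or above the median level were 1.5-fold higher with G536S and 5.09% with wild type. Their median with G536S was 0.17, with the ribonucleases XRN2 and PARN at 0.54 and 0.46 and the exosome subunit EXOSC5 at -0.37. The box C/D proteins FBL, NOP58 and SNU13 differed by 0.07, 0.18 and 0.08, and NOP56 had no set of its own.

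TERC, the telomerase RNA, ends in an H/ACA domain and binds the same core proteins. Its values were 5.74, 5.39 and 6.27 in the same array order, so it was lowest with wild type (-0.34) and highest with G536S (0.53), 0.87 apart. The reverse transcriptase TERT and the Cajal body protein WRAP53 differed by -0.24 and -0.19 with G536S.

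The empty vector array had the lowest 75th percentile over all probe sets, though its highest value, 12.57, was above the 12.38 of wild type and 12.14 of G536S. The choice of scaling moved comparisons with the empty vector array. For genes at or above the median level, the median G536S minus empty vector difference was 0.10 as deposited, -0.03 under quantile normalization and -0.01 under cyclic loess, and the median of all 61 members was 0.49, 0.39 and 0.39. Of the 61 members, 54 kept their direction under quantile normalization, median centring and cyclic loess for G536S against the empty vector, 47 for wild type against the empty vector and all 61 for G536S against wild type. Of the 25 members 1.5-fold higher with G536S, 20 stayed so under each of these scalings, as did 18 of the 20 in the direct comparison and 8 of the 10 with wild type. Those that fell short under at least 1 scaling were SNORA14B, SNORA46, SNORA49, SNORA50A and SNORA75 for G536S against the empty vector, SNORA14B and SNORA24 in the direct comparison, and SNORA24 and SNORA71A for wild type. The 7 members whose G536S minus empty vector direction turned, SNORA33, SNORA78, SNORA80B, SNORA80E, SNORA11E, SNORA35 and SNORA70D, all differed by at most 0.13 as deposited. Of all genes that lay 1.5-fold apart when G536S was set against the empty vector, the share that was higher came to 74.1% as deposited, 41.3% after quantile normalization and 46.7% after cyclic loess. For wild type it was 75%, 47.9% and 51.5%. Members 1.5-fold higher with G536S made up 32.8% after quantile normalization (genes, 1.59%) and 34.4% after cyclic loess (genes, 1.75%).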

How the data were processed

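The data are 1 array for each of 3 groups. Per the labels' protocols, biotinylated cRNA was prepared from TRIzol-extracted total RNA. Values for each probe set are on the log2 intensity scale, as the authors deposited them after RMA (background correction, normalization and summary of probes), per the submitters' processing notes. The RMA version, array build and log base were not given in the sources used here, and base 2 was inferred from the values. Of 53617 probe sets, 25713 are in the platform annotation, 23871 of them with 1 gene and 1842 with several; the rest are unnamed here. Symbols were updated by Entrez ID from a RefSeq table (GRCh38.p14), which left 22395 genes, each with its brightest probe set. Hosts, lengths and start or hairpin sequences came from RefSeq tables of that build; all 61 snoRNAs matched, while full snoRNA sequences were not used here. The plan asked for hosts on the same strand, but containment alone was used.

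Differences are one array minus another, and a gene was counted at 1.5-fold or 2-fold. No test was run, since each group has 1 array. Members named are those with the 8 highest or 8 lowest differences in any comparison and the 8 brightest, with their families and hosts (1 host is not reported here), and the listed protein genes; others were chosen after their values were seen. Members and lists were chosen with earlier results of these data known. Counting was tested on simulated data. Alternatives were the mean of probe sets, 3 other scalings, 2 level filters, a floor at the 25th percentile and leaving out lettered copies; 2 more, and the split by wild-type level, were chosen after seeing the data. Software was R 4.3.3 with limma 3.58.1, and Python 3.11.15 with numpy 2.4.6, pandas 2.3.3, scipy 1.17.1 and matplotlib 3.10.9.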

Additional observations from a re-analysis of the deposited data

Results flagged for a closer look

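The 7 probe sets that name an H/ACA snoRNA with other small RNA genes only are outside the 61 members. They hold 6 distinct measurements, whose median G536S minus empty vector difference was 0.43, above the empty vector array that serves as control. Of these 6, 4 were above 0 (background 48.7% of all genes) and 3 were at least 1.5-fold higher (background 3.05%). They include the SNORA59A and SNORA59B set at 4.55, 5.00 and 5.92 in empty vector, wild type and G536S, which stands in the table under 2 identifiers with identical values and is 1 measurement. The SNORA33 and SNORD100 set read 7.87, 8.04 and 8.54. Those naming SNORA36B with MIR664A and SNORA33 with SNORD101 differed by -0.32 and -0.34, with values between 0.87 and 1.67.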

How the results depend on the processing

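With 1 array per group no replicate could be left out. No paired analysis was possible because each group has 1 array and no test was run. No median difference changed sign. Of the recomputed values 118 moved by less than 0.1 log2 for a median or 1.5 times for a count, and 32 moved further. For G536S minus empty vector the median came to 0.39 under quantile normalization, 0.39 under cyclic loess, 0.84 at or above the 75th percentile level, 0.11 below it (27 and 34 members) and 0.66 without lettered copies. Below the 75th percentile level 6 members were 1.5-fold higher, 3 were 2-fold higher, 1 was 1.5-fold lower and 0 were 2-fold lower. At or above it 1 was 1.5-fold lower, and without lettered copies 0 were 1.5-fold lower and 0 were 2-fold lower. For wild type minus empty vector the median was 0.24 at or above the 75th percentile level and 0.20 without lettered copies. Members 2-fold higher numbered 1 after quantile normalization, 1 after cyclic loess, 2 without lettered copies and 1 below the 75th percentile level, where 2 were 1.5-fold higher. Members 1.5-fold lower numbered 1 after median centring and 0 in the 2 subsets above. For G536S minus wild type the median was 0.35 at or above the median level, 0.59 at or above the 75th percentile level and 0.47 without lettered copies. Without lettered copies 13 were 1.5-fold higher, 0 were 1.5-fold lower and 0 were 2-fold lower. Below the 75th percentile level 6 were 1.5-fold higher, 2 were 2-fold higher and 0 were lower by 1.5-fold or 2-fold. Subsets hold fewer genes, and signal near background limits what a low member can show; the cause of the shifts with scaling was not tested.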
